A study of Botryllus schlosseri with 78 samples.

Results

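FcoR8, FcoR14, FcoR20, FcoR24, FcoR51 and FcoR58 are 6 of the 69 FcoR transcripts in a table of 137 transcripts from the colonial tunicate Botryllus schlosseri. They were chosen by their measured values in the colonies SMGO and SMH, where each was lower in ampullae than in whole bodies, or listed at 0 in ampullae. The series records RNA sequencing of 78 libraries, of which 77 have values, and the FcoR sequences were found by searches that started from fester genes. Each value is on the authors' TMM scale and is read here as TMM-scaled TPM, close to a share of the 137 transcripts. Read totals are not given, so no floor or counting interval can be set for a value of 0, and a value of at least 1 is called detected.

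There were 3 whole-body libraries from each of the colonies SB825, SKI, SMGO and SMH, to which the labels give no treatment, age or stage. Ampullae, which the labels describe as vasculature cells, gave 4 libraries of SMGO, 3 of SMH and 3 of each of the SB825 lines FX, FEA and FDA. The first pair of SMGO libraries is labelled technical and counts as 1 replicate, so that SMGO ampullae have n = 3. Male whole colonies of M001, MADM and MDR, here called genotypes, were sampled once at each of 7 stages of the budding cycle, A1 to D. Blood of 3 individuals gave 1 library each. From 4 individuals, cells with and without aldehyde dehydrogenase (ALDH) were sorted into 1 library each, and of these individuals the labels call 1 and 7 losers and 2B and 6 winners. Integrin alpha-6 (IA6) positive cells gave 2 libraries from each of 4 individuals, and 2 of these individuals, 81A and 81C, also gave 2 negative libraries each. Vascular cells sorted with the reagent called BSA gave 5 libraries with values. Where the labels name replicates, they do not say whether these are separate pieces of tissue or separate preparations of one RNA, so the spread behind each p-value may be technical.

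Botryllus colonies consist of zooids that bud within a common tunic and share one blood system. The vessels end at the colony edge in blind, contractile sacs, the ampullae, and it is there that neighbouring colonies touch and either fuse or reject each other. That outcome follows the highly polymorphic fuhc locus, and fester and uncle fester encode receptors that take part in it. No individual role is known for any of these 6 genes. The names match none of the gene symbols of the RefSeq table of this species, so neither positions nor sequences are printed. The table holds no general markers of vessel, blood or zooid cells, so the tissue labels could not be checked against markers. In all of these samples, fewer cells that express a gene and less RNA per cell cannot be told apart.

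Library sums ran from 308919 to 1466577. The lowest detected value in a library, a rough guide to its sensitivity, was 4.91 to 58.5 in whole bodies, 10.3 to 102 in male colonies, 28.1 to 86.9 in ampullae, 36.7 to 59.2 in blood and 84.1 to 2337 in BSA libraries. Low members are therefore harder to see in ampullae than in whole bodies. In ALDH-negative cells the lowest detected value was 75.8 to 207, and in ALDH-positive cells 1.18 to 62.6. In IA6-negative cells it was 19.2 to 68.9, and in IA6-positive cells 23.6 to 56.3. The 23 signalling and Fuhc transcripts of the table were detected in full in every ampullae, whole-body, male and blood library. Whole-body SMH replicate 3 stood apart, and its description is worded unlike those of replicates 1 and 2. Over all transcripts it correlated at 0.822 and 0.828 with replicates 1 and 2, which correlated at 0.977 with each other. With the mean of the SMH ampullae it correlated at 0.949, against 0.758 and 0.776 for replicates 1 and 2. Whether all SMH whole bodies and the SMH ampullae share one genotype was not tested. SB825-FX ampullae replicate 1 correlated at 0.809 and 0.812 with replicates 2 and 3, which correlated at 0.953. Results that rest on these libraries are given with and without them.

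In the SMGO and SMH libraries that chose them, the 6 genes were present throughout the whole bodies and mostly at 0 in the ampullae. All 36 whole-body values of the 6 genes were detected, against 12 of 24 in SMGO ampullae and 1 of 18 in SMH ampullae. The remaining SMH value was FcoR20 in replicate 2, at 69.8. Every member was lower in the ampullae without overlap of the ranges in both colonies. This also held with the technical libraries kept apart and without whole-body SMH replicate 3. Replicate 3 is, however, the SMH whole body most like the SMH ampullae over all transcripts. Without it, tissue and genotype cannot be told apart in SMH. Over both colonies the mean log2 difference, on log2(value + 1), ran from -7.75 for FcoR51 through -6.91 for FcoR24, -6.48 for FcoR58, -6.07 for FcoR8 and -5.93 for FcoR20 to -4.64 for FcoR14, the member nearest the edge of the set. FcoR19, just outside, differed by -3.87 with overlapping ranges. Of the 82 transcripts detected in at least 6 of the 13 libraries, 30.5% had a lower mean in the ampullae of both colonies. Lower ranges without overlap in both colonies were not particular to the members. They also held for FcoR72 and, named after their values were seen, for FF6, NF-kB, SHP2, FuHc-Tm and HSP40L. These values define the set and carry no test.

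**Figure D1:**
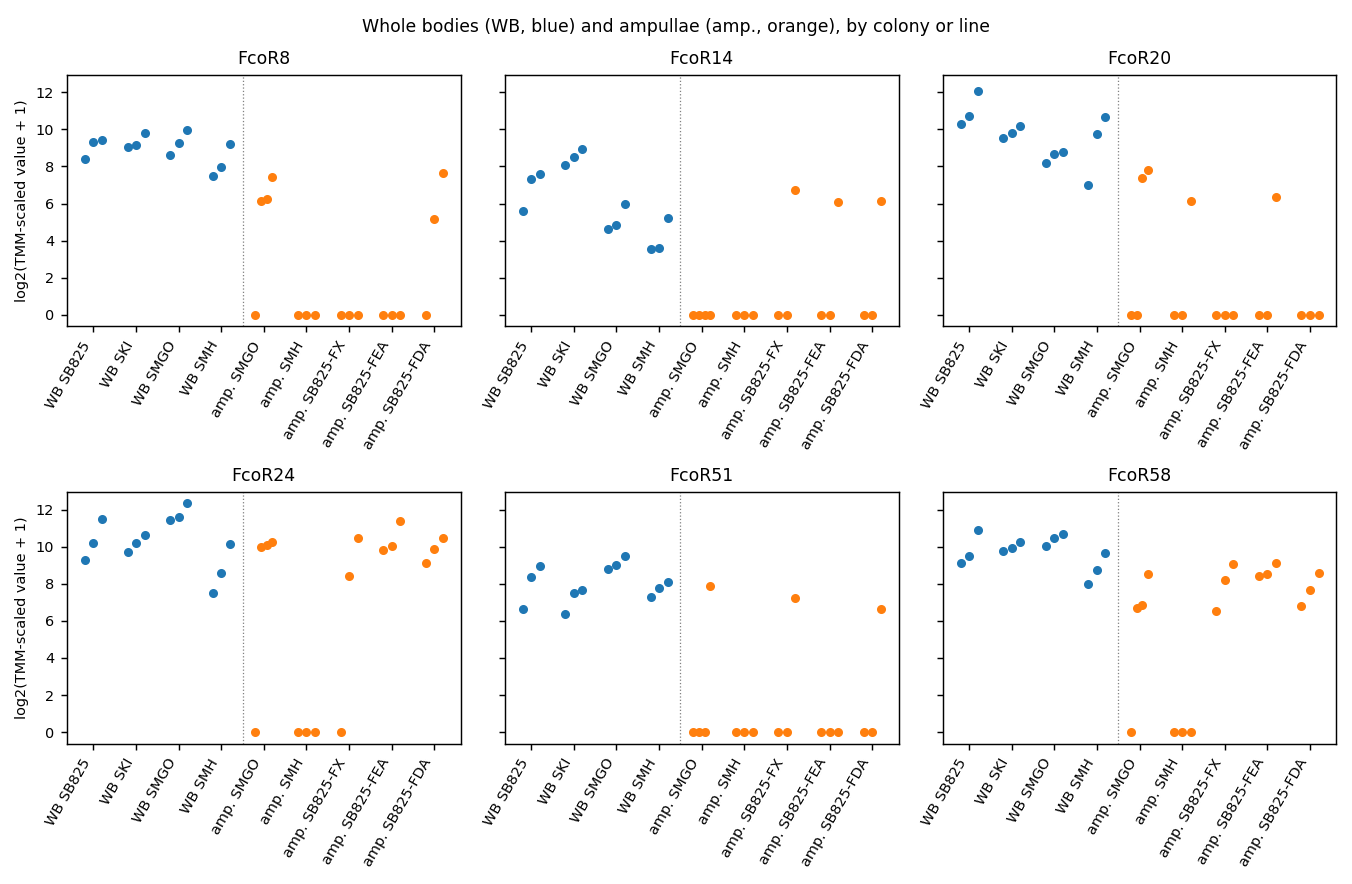
Each point is 1 library, with log2(TMM-scaled value + 1) on the y axis and the colony or line on the x axis, whole bodies in blue and ampullae in orange. Whole-body points lie above 0 for all 6 genes, all but 1 of the 18 values in SMH ampullae lie at 0, and FcoR24 and FcoR58 are above 0 in 8 and 9 of the 9 SB825 ampullae libraries.

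FcoR8 was detected in every whole body, at 178.9 to 1016. Its values were 649.7, 698 and 331 in SB825, 887, 577 and 535 in SKI, 1016, 396 and 611 in SMGO and 589.9, 251 and 179 in SMH. In ampullae it was at 169, 0, 75.7 and 69.5 in SMGO, the first pair technical, and at 0 in all SMH, FX and FEA libraries. The FDA line had 0, 35.5 and 197. Every ampullae library was below every whole-body library of the colony of the same name, but the highest FDA value was above the lowest SMH whole body.

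FcoR20 varied more between colonies and was the least often detected member in the SB825 lines. Whole bodies had 1698, 4295 and 1236 in SB825, 896, 727 and 1143 in SKI, 291, 404 and 441 in SMGO and 1629.9, 125 and 845 in SMH. Ampullae of SMGO had 0, 220.4, 0 and 166. Of the 9 SB825 line libraries, 8 were at 0 and FEA replicate 3 was at 79.6. The SB825 lines therefore lay below all whole bodies of every colony, while 2 SMGO ampullae libraries lay above the lowest SMH whole body.

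FcoR24 was the most abundant member in the SKI and SMGO whole bodies and was also abundant in most ampullae. Whole bodies had 1185, 2868 and 616 in SB825, 1601, 1171 and 829 in SKI, 2741, 3131 and 5183 in SMGO and 386, 1136 and 182 in SMH. SMGO ampullae had 1084, 1212, 1016 and 0, FDA 552, 1402 and 944, FEA 2712, 888 and 1051 and FX 0, 338 and 1418. The 3 SMH ampullae libraries were all at 0. Ampullae and whole bodies overlapped between colonies: the SB825 lines reached values within the range of the SB825 whole bodies.

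FcoR58 was the only member detected in all 9 SB825 line libraries and in all 33 whole-colony libraries together. Whole bodies had 726, 1895 and 548 in SB825, 862, 979 and 1218 in SKI, 1042, 1427 and 1616 in SMGO and 428, 807 and 249 in SMH. SMGO ampullae had 113, 0, 102 and 374, FDA 111, 382 and 198, FEA 556, 361 and 345 and FX 90.8, 539 and 292, and SMH ampullae were at 0. The lines lay below the SKI and SMGO whole bodies and overlapped the SB825 whole bodies at 1 value, 556.0 in FEA replicate 1, and those of SMH more widely.

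FcoR14 and FcoR51 were the low members. FcoR14 had 157, 193 and 47.0 in SB825 whole bodies, 493, 271 and 361 in SKI, 23.7, 62.0 and 28.2 in SMGO and 35.9, 11.1 and 10.9 in SMH. It was at 0 in all 7 SMGO and SMH ampullae libraries, and in the lines at 69.6 in FDA replicate 2, 66.1 in FEA replicate 3 and 103.8 in FX replicate 2, with 0 in the other 6. The lowest value of any transcript detected in an ampullae library was 69.5 to 86.8 in SMGO and 28.1 to 51.3 in SMH. FcoR14 in the SMGO whole bodies was below that range, and in the SMH whole bodies below or within it, so a 0 of FcoR14 in these ampullae cannot be told from its whole-body level.

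FcoR51 had 329, 502 and 98.7 in SB825 whole bodies, 83.2, 202 and 183 in SKI, 519.6, 441 and 712 in SMGO and 268, 218 and 156 in SMH. In ampullae it was detected in 3 of 16 libraries, at 235.2 in one technical SMGO library, 152 in FX replicate 3 and 99.9 in FDA replicate 2. The other technical library of SMGO was at 0 for FcoR51 as well as for FcoR8 and FcoR58, where the first had 169 and 113.5.

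Whether the lower level extends to samples outside the choice was tested with the 3 SB825 ampullae lines against 5 whole colonies, SB825, SKI, M001, MADM and MDR, with 1 mean of log2 values per line or colony. The labels do not say how the lines, which all carry the SB825 name, relate to each other or to the SB825 whole bodies. If the lines share a genotype, the spread among them is not a spread among colonies, and the p-values may be too small. Ampullae of the other 4 colonies were not analysed here, so tissue and genotype cannot be told apart in full. FcoR8 and FcoR20 were lower in the lines by far more than the spread, and FcoR51 was lower with less margin. FcoR14, FcoR24 and FcoR58 did not pass. In all, 3 of 6 members passed limma at an adjusted p under 0.05, all 3 lower, against 15.0% of the 100 transcripts tested, and 8.0% that passed in the lower direction. The median log2 difference was -4.52 over the 6 members and -0.41 over all tested.

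For FcoR8 the mean of the lines was 25.8 ± 44.7 (SD, n = 3) and of the colonies 747 ± 269.8 (SD, n = 5), a log2 difference of -7.93 ± 1.24 (SE; 95% interval -10.8 to -5.08; limma adjusted p = 0.00329). FcoR20 stood at 8.85 ± 15.3 against 2217 ± 2013, a log2 difference of -9.85 ± 1.08 (SE; -12.3 to -7.38; limma adjusted p = 0.000751). Both calls held in all 44 repeats that left out 1 library, line or colony, including those without FX replicate 1, with adjusted p up to 0.0227 for FcoR8 and 0.00466 for FcoR20. They also held against the male colonies alone, with log2 differences of -8.03 (limma adjusted p = 0.0181) and -9.94 (0.00369), and against the whole bodies of SB825 and SKI alone, with -7.78 (0.0462) and -9.72 (0.0163). Most line values of both genes were 0, so the size of the differences depends on the pseudocount. With pseudocounts of 10 and 0.1, FcoR8 differed by -5.32 and -10.5 and FcoR20 by -6.90 and -12.8, all past the threshold.

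FcoR51 stood at 28.0 ± 25.8 in the lines and 208 ± 89.4 in the colonies, a log2 difference of -5.05 ± 1.33 (SE; -8.12 to -1.99; limma adjusted p = 0.0362). Its call was lost in 12 of the 44 repeats, among them those without the line FX (adjusted p = 0.0740), FEA (0.175) or FDA (0.127) and without the colony SB825 (0.0611) or MADM (0.0693). It was also lost without 1 library in 7 of these repeats, FDA replicate 1 or 3, FX replicate 1 or 2, or MDR at stage A1, A2 or B2, with adjusted p between 0.0502 and 0.0659. Against the male colonies alone, a comparison added after the values were seen, the difference was -4.39 (limma adjusted p = 0.0789), and against the whole bodies of SB825 and SKI alone it was -6.05 (0.0462). With pseudocounts of 10 and 0.1 the FcoR51 difference was -2.98 and -7.16, both past the threshold.

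FcoR14 stood at 26.6 ± 6.94 against 227 ± 122, a log2 difference of -3.98 ± 1.61 (SE; -7.67 to -0.28; limma adjusted p = 0.128). It passed without the genotype MDR (adjusted p = 0.0307) and against the whole bodies of SB825 and SKI alone (0.0462). With pseudocounts of 10 and 0.1 the FcoR14 difference was -2.52 and -5.43, neither past the threshold. FcoR58 stood at 319 ± 95.8 against 860.5 ± 184, a log2 difference of -1.47 ± 0.64 (SE; -2.93 to 0.00186; limma adjusted p = 0.144). FcoR24 stood at 1034 ± 486 against 2284 ± 1738, a log2 difference of -1.39 ± 1.39 (SE; -4.60 to 1.81; limma adjusted p = 0.508). Without FX replicate 1, the library that stood apart and was at 0 for FcoR24, the FcoR24 difference was -0.35 (adjusted p = 0.844), and over the 44 repeats it ran from -2.19 without MDR to -0.12 without the line FX. Without that library FcoR14 differed by -3.61 and FcoR58 by -1.23, neither past the threshold. The intervals of FcoR24 and FcoR58 include both no difference and a lower level. For 5 of the 6 members every line mean was below every colony mean, FcoR24 being the exception, and this held for 19.0% of the 100 transcripts tested.

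**Figure D2:**
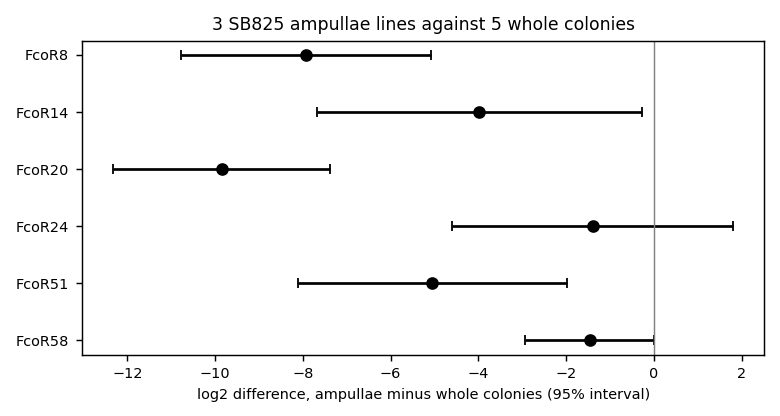
Points are log2 differences, 3 SB825 ampullae lines minus 5 whole colonies, with 95% intervals from limma, 1 row per gene. FcoR20 and FcoR8 lie farthest from 0 and the intervals of FcoR24 and, by a small margin, FcoR58 reach past it.

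Calls in the FcoR family went both ways in this comparison, while its median log2 difference was -1.15, against -0.41 over all tested. Of 56 FcoR transcripts tested, 7 passed, 3 higher and 4 lower in the lines, and the 4 lower ones were FcoR8, FcoR20, FcoR51 and FcoR19, which was picked after its values were seen (log2 difference -6.83, limma adjusted p = 0.0206). FcoR38 was higher in the lines by 11.49 on the log2 scale (limma adjusted p = 0.00275). FcoR70, FcoR62 and FcoR72, named with FcoR38 for comparison, differed by -5.08, -1.93 and -1.12, none past the threshold. Of these, FcoR72 was also lower in the ampullae of SMGO and SMH without overlap, as the members were. Scaling each library to its signalling and Fuhc transcripts moved the median of all transcripts by 0.32 and turned the split of calls from 7 higher and 8 lower to 8 higher and 5 lower. The same 3 members stayed called at log2 differences of -7.51 for FcoR8, -9.44 for FcoR20 and -4.68 for FcoR51.

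Whole bodies of the 4 colonies differed in level, with FcoR14 highest in SKI and FcoR24 highest in SMGO. The SMGO and SMH whole bodies took part in the choice of the genes, so the F test over all 4 colonies is not independent of that choice and its p-values are given as a description. SKI against SB825, further on, compares libraries outside the choice, but the SMGO and SMH whole bodies still add to its estimate of spread. FcoR14 averaged 375 ± 112 (SD, n = 3) in SKI, 132 ± 76.1 in SB825, 38.0 ± 20.9 in SMGO and 19.3 ± 14.4 in SMH (limma F test, adjusted p = 0.000929). The 3 SKI libraries lay above all others. FcoR24 averaged 3685 ± 1312 in SMGO, 1556 ± 1171 in SB825, 1200.4 ± 387 in SKI and 568 ± 503 in SMH (adjusted p = 0.0210). SMGO was highest but for 1 SB825 library that lay within its range, and the FcoR24 call was lost without SMGO replicate 3 (adjusted p = 0.0682) or SMH replicate 1 (0.0545). Without SMH replicate 3, the library that stood apart, both stayed called (0.00231 for FcoR14 and 0.0475 for FcoR24). With 2 of 6 members passing, the share was below the 78.2% of the 110 transcripts tested that passed, and the difference between those shares was not tested.

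The 4 other members did not pass in the same F test, which reuses the SMGO and SMH values of the choice. FcoR20 averaged 2409 ± 1649 in SB825, 922 ± 209 in SKI, 867 ± 753 in SMH and 379 ± 77.8 in SMGO (limma adjusted p = 0.0877). FcoR20 passed without SMH replicate 1 (0.0308) or replicate 2 (0.00777). FcoR51 averaged 557 ± 139 in SMGO, 309.9 ± 202 in SB825, 214 ± 56.1 in SMH and 156 ± 63.8 in SKI (0.0690). FcoR51 passed without SB825 replicate 2 (0.0392) or replicate 3 (0.00989). Without SMH replicate 3, the library that stood apart, neither FcoR20 (0.0980) nor FcoR51 (0.0854) passed.

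FcoR58 averaged 1362 ± 292 in SMGO, 1056 ± 732 in SB825, 1019.7 ± 182 in SKI and 495 ± 285 in SMH (limma adjusted p = 0.0769), and it passed without SB825 replicate 2 (0.0283) or SMH replicate 2 (0.0293). FcoR8 averaged 675 ± 315 in SMGO, 666 ± 192 in SKI, 559.6 ± 199 in SB825 and 339.8 ± 219.5 in SMH (0.203), and it passed without SMH replicate 1 (0.0479). Without SMH replicate 3, neither FcoR58 (0.241) nor FcoR8 (0.532) passed. SMH had the lowest mean of FcoR8, FcoR14, FcoR24 and FcoR58, SKI that of FcoR51 and SMGO that of FcoR20.

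SKI and SB825 whole bodies, neither used in the choice, showed no member past the threshold, against 57.3% of the 110 transcripts tested. The fit also held the SMGO and SMH whole bodies, which add to the estimate of spread. At an unadjusted p under 0.05 there was 1 member, FcoR14, with a log2 difference, SKI minus SB825, of 1.68 (95% interval 0.19 to 3.17; limma adjusted p = 0.0535). FcoR20 differed by -1.20 (-3.09 to 0.70) and FcoR51 by -0.80 (-2.13 to 0.54). Without SB825 replicate 3 FcoR51 differed by -1.48 and passed (adjusted p = 0.0221), and FcoR14 passed without SB825 replicate 2 (0.0378) or SMH replicate 1 (0.0368). FcoR8 differed by 0.29 (-0.89 to 1.46), FcoR58 by 0.15 (-1.02 to 1.32) and FcoR24 by -0.14 (-1.76 to 1.47).

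The highest single values of FcoR8 and FcoR20 came from male colonies, and the male genotypes differed in 4 of the 6, against 80.2% of the 106 transcripts tested. From stage A1 to stage D, FcoR20 had 3593, 5529, 9503, 5951, 6448, 4328 and 4184 in MADM, 907, 178, 1405, 904, 625, 1309.9 and 1924 in M001 and 2406, 1627, 806, 792, 833, 685 and 320.4 in MDR. All 7 MADM libraries lay above all 14 others (MADM 5648 ± 1988, M001 1036 ± 569, MDR 1067 ± 708; SD, n = 7 each; limma F test with stage as block, adjusted p = 0.000404). The call held without any 1 stage, with adjusted p up to 0.00306.

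FcoR24 was highest in M001, at 2912, 4944, 6550.5, 5047, 6445, 5250.1 and 4619 from A1 to D, followed by MADM at 1696, 1743, 2040.5, 3168, 4028, 3278 and 3277 and MDR at 1367, 1144, 319, 2185, 0, 627 and 0. The means were 5109.8 ± 1223, 2747 ± 912 and 806 ± 806 (limma adjusted p = 0.0135). M001 was above MADM, and MADM above MDR, at each stage.

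FcoR8 averaged 1188 ± 633 in M001, 803 ± 298 in MADM and 519 ± 346 in MDR (limma adjusted p = 0.0213), with overlapping ranges. The FcoR8 call was lost without stage B1 (adjusted p = 0.0815), where M001 was at 2038, or without C2 (0.0566). FcoR14 averaged 282 ± 169.9 in MADM, 271 ± 332 in M001 and 73.8 ± 153 in MDR (limma adjusted p = 0.0332). FcoR14 was detected in all 7 MADM, 4 of 7 M001 and 2 of 7 MDR libraries, and its call was lost in 5 of 7 repeats, without A1, B2, C1, C2 or D, with adjusted p between 0.0572 and 0.0844.

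FcoR51 and FcoR58 did not pass between male genotypes. FcoR51 averaged 299.9 ± 165 in MADM, 146 ± 156 in MDR and 126 ± 99.6 in M001 (limma adjusted p = 0.145). FcoR58 averaged 884 ± 430.3 in M001, 679 ± 442 in MDR and 664 ± 239.9 in MADM (0.4933). Its 21 values ran from 223.3 to 1521.

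**Figure D3:**
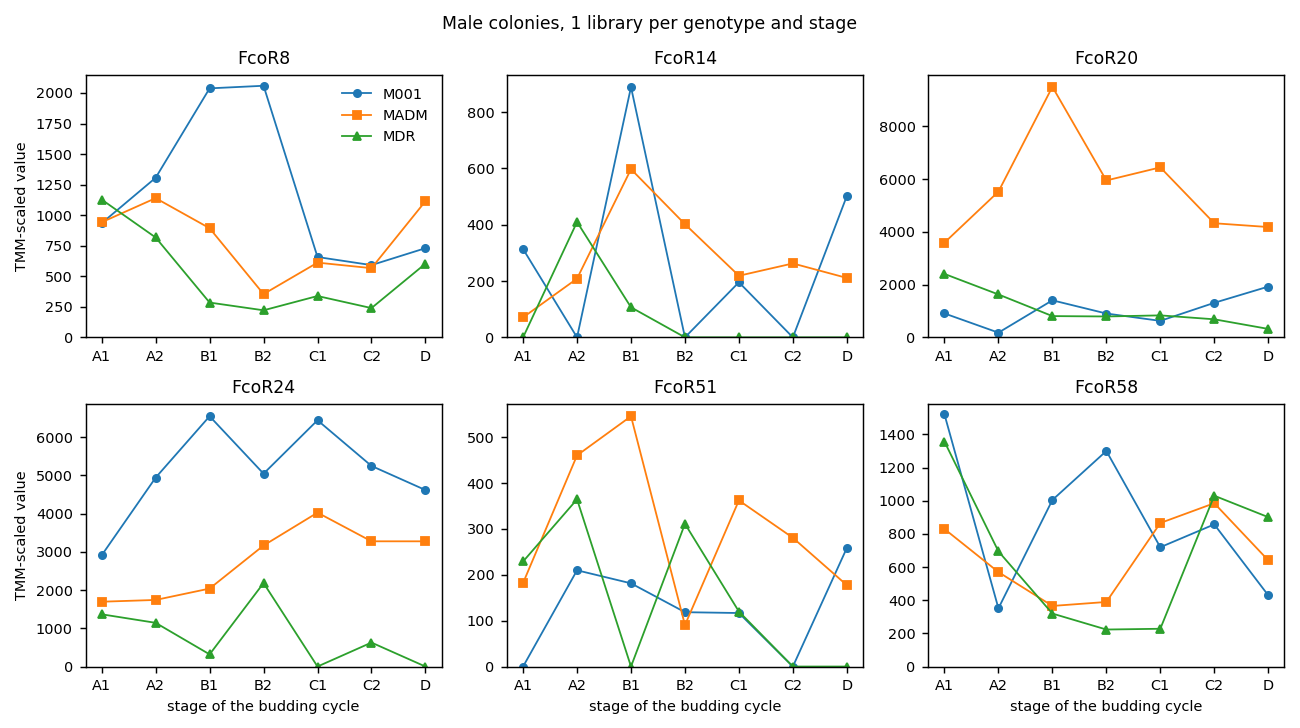
TMM-scaled value (y axis, from 0) at each stage of the budding cycle (x axis), 1 point per library and 1 line per male genotype. The MADM line lies above both others at every stage for FcoR20, and the M001 line lies highest at every stage for FcoR24.

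No member passed between the 7 stages of the male colonies (limma F test with genotype as block, adjusted p between 0.739 and 0.969, and 0 members at an unadjusted p under 0.05), against 0.926% of the 108 transcripts tested. The single transcript that passed was FuHc-Tm, named after its value was seen. FcoR8 averaged 1087 ± 248 (SD, n = 3) at stage A2 and 466 ± 196 at C2, the highest and the lowest of its stage means. FcoR58 averaged 1236 ± 361 at A1 and 539 ± 174 at A2.

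Blood held a subset of the genes. FcoR51, FcoR58 and FcoR24 were detected in all 3 individuals, FL3, FLLC2 and LFC4. FcoR51 had 753, 517 and 753, above the means of the SB825, SKI, SMH and male groups, while the SMGO whole-body mean of 557 lay above the FLLC2 value, and FcoR58 had 861, 719 and 1051. FcoR24 had 1816, 788 and 3201. FcoR8 was low, at 70.7, 221 and 129, FcoR20 was at 172.9 in FL3 and at 0 in the other 2, and FcoR14 was at 0 in all 3. The blood individuals carry other names than the colonies, so tissue and genotype cannot be told apart here.

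In the ALDH fractions, FcoR20 and FcoR24 were high in both fractions of the same individuals. In the order 1, 7, 2B and 6, FcoR20 had 5794, 4522, 579 and 701 in negative cells and 2985, 6859, 1223 and 201 in positive cells. FcoR24 had 4639, 7044, 1044 and 0 in negative and 3482, 4432, 0 and 0 in positive cells. The losers 1 and 7 lay above the winners 2B and 6 in both genes and both fractions. No other member separated them in both fractions. These genes were picked out after the values were seen, and the share of all transcripts that separate in this way was not counted.

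FcoR8 had 1150.0, 582, 715 and 0 in negative and 203, 963, 0 and 0 in positive cells, in the same order. FcoR58 had 666, 0, 484 and 0 in negative and 821, 977, 373 and 336 in positive cells, higher in positive cells in 3 of 4 individuals. In individuals 7 and 6 this rests on a 0 in the less sensitive library. The lowest detected values there were 90.3 and 207 in negative cells, against 13.6 and 62.6 in positive cells. FcoR14 ran from 0 to 1763 over the 8 libraries, and FcoR51 was detected in 3 of them. Between fractions, with individual as block, 0 of the 5 members tested passed (limma adjusted p between 0.433 and 0.840, and 0 at an unadjusted p under 0.05), as did 0% of the 89 transcripts tested, 9 of which had an unadjusted p under 0.05. FcoR51 was detected in too few libraries to be tested. The log2 difference, positive minus negative, was 4.56 for FcoR58 (95% interval -1.56 to 10.7), -2.81 for FcoR8 (-8.06 to 2.43) and -0.27 for FcoR20 (-1.87 to 1.33).

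**Figure D4:**
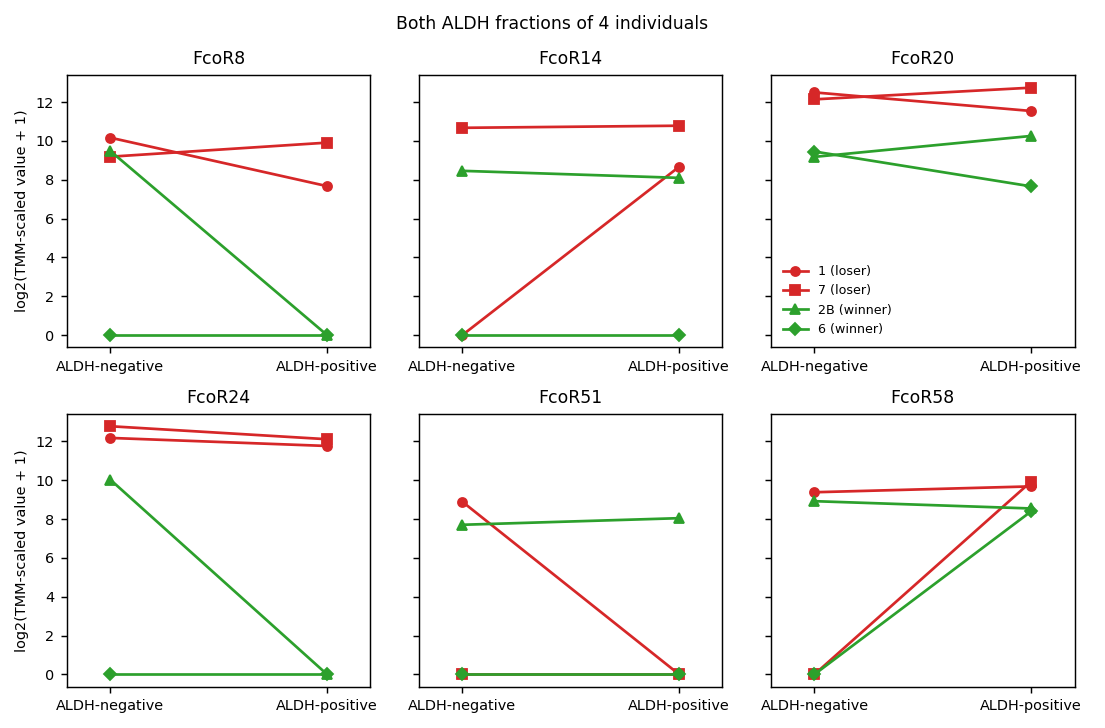
log2(TMM-scaled value + 1) in the ALDH-negative and ALDH-positive library of each individual, joined by a line, losers in red and winners in green. For FcoR20 and FcoR24 the red lines lie above the green lines in both fractions, which holds for none of the other genes shown.

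Losers and winners were compared with 1 mean per individual, a comparison added after the values were seen. FcoR20 in losers ran from 2985 to 6859 and in winners from 201.2 to 1223, and FcoR24 in losers from 3482 to 7044 and in winners from 0 to 1044. Neither passed with 2 individuals a group: the log2 difference, winners minus losers, was -3.09 ± 1.0 for FcoR20 (SE; 95% interval -5.61 to -0.58; limma adjusted p = 0.826) and -9.70 for FcoR24 (-19.8 to 0.42; adjusted p = 0.975). Of 6 members 0 passed, and at an unadjusted p under 0.05 there was 1, FcoR20. The share was 0% of the 100 transcripts tested, with 3 at an unadjusted p under 0.05.

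IA6 libraries of one individual often disagreed. In 81A, FcoR24 had 3013 and 926 in the positive and 0 and 235 in the negative libraries. In 81C it was at 127 in positive replicate 1, at 237 in negative replicate 2 and at 0 in the other 2. The positive cells of 79G had 2614 and 5337, and those of 79C 578 and 0, where replicate 1 held 4 of the members and replicate 2 none. FcoR20 in 81C had 1452 and 926 in positive and 808 and 322 in negative cells, and in 81A it was detected in 1 of 4 libraries, at 132 in positive cells. Within 81A for FcoR24, and within 81C for FcoR20, both positive libraries were above both negative ones, while within the other individual, and over both individuals together, the fractions overlapped or shared values of 0.

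FcoR8 was detected in 1 of 8 IA6-positive libraries, at 137, and in 1 of 4 negative ones, at 945. Over 81A and 81C, with individual as block, 0 of the 5 members tested passed (limma adjusted p between 0.742 and 0.918, and 0 at an unadjusted p under 0.05), against 1.30% of the 77 transcripts tested. That transcript was FcoR54, named after its value was seen, and FcoR8 was detected in too few libraries to be tested. Of the members, FcoR14 had a log2 difference, positive minus negative, of 4.28 (95% interval -0.99 to 9.55).

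BSA-sorted vascular cells are the other labelled source of vasculature, with lowest detected values of 84.1 to 2337. FcoR58 had 695.6, 981.1 and 551.2 in SB04, SB05 and SB06, and FcoR24 had 1734 in SB04 and 1589.6 in SB06. FcoR14 was detected in SB05 and SB06, FcoR20 in SB06 alone, and FcoR8 and FcoR51 in none. In the libraries SB07-09 and SB10-11, all 6 genes were at 0, but these libraries hold 7 and 18 of the 137 transcripts and 7 and 11 of the 23 signalling and Fuhc transcripts, so their zeros say nothing about the 6 genes.

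Ordered by the mean over colonies or individuals, the 6 genes peaked in different sources. The ampullae and whole-body means include the SMGO and SMH libraries that chose the genes. The place of ampullae in these orders is therefore partly set by that choice. FcoR8 was highest in male colonies (836 ± 336; SD, n = 3 colonies) and then ALDH-negative cells (612 ± 475, n = 4) and whole bodies (560.1 ± 156, n = 4). FcoR20 was highest in ALDH-negative cells (2899 ± 2660, n = 4), ALDH-positive cells (2817 ± 2930, n = 4) and male colonies (2584 ± 2654, n = 3), and lowest in ampullae (28.4 ± 37.7, n = 5). FcoR24 was highest in ALDH-negative cells (3182 ± 3252) and male colonies (2888 ± 2155), with ampullae at 765 ± 565.

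FcoR51 was highest in blood (674 ± 136, n = 3), and FcoR58 in whole bodies (983 ± 359.8, n = 4) and blood (877 ± 167, n = 3), with ampullae at 227 ± 156. FcoR14 was highest in ALDH-positive cells (610.5 ± 787, n = 4) and at 0 in blood. Of the 48 pairs of neighbours in these orders, 3 differed by more than the sum of their SDs: FcoR51 in blood above IA6-negative cells, FcoR51 in ampullae above BSA cells, where it was at 0, and FcoR14 in ampullae above blood, where it was at 0. The ampullae means in the last 2 pairs, 24.6 for FcoR51 and 15.97 for FcoR14, lie below the lowest value detected in any BSA or blood library, so those zeros cannot be told from the ampullae level. In the first pair the IA6-negative mean rests on 2 individuals. One of its libraries, 81A replicate 2 at 885.7, lay above every blood value. In the other 45 pairs the neighbours did not differ beyond their spread. The BSA means and SDs include the BSA libraries described above as holding few transcripts, whose zeros say nothing about these genes. Those zeros lower the BSA means, so the place of BSA cells in these orders, and the pairs that include them, are uncertain.

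**Figure D5:**
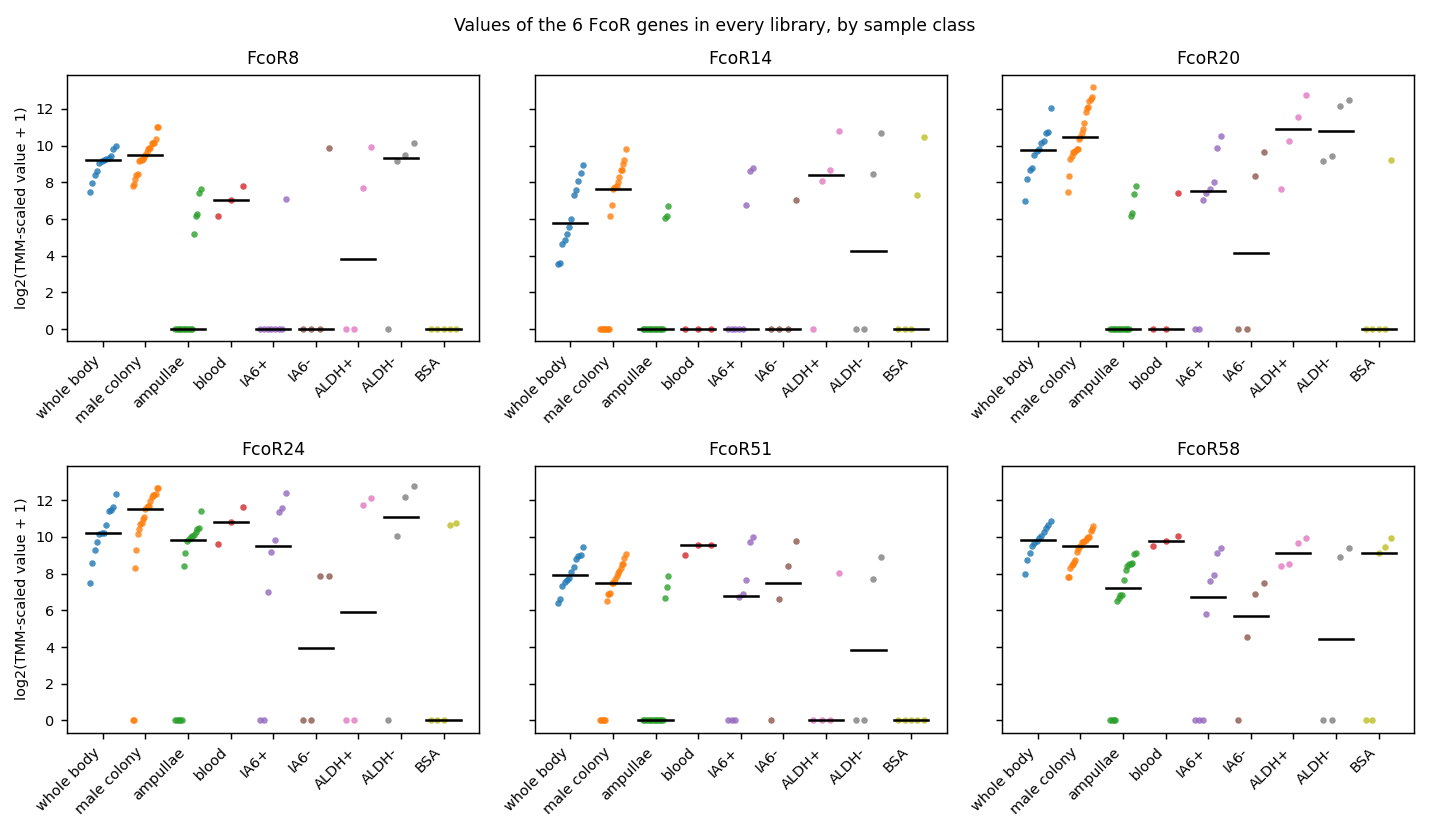
Each point is 1 library, with log2(TMM-scaled value + 1) on the y axis, sample classes on the x axis, and a bar at the median of the libraries. Ampullae have a median of 0 for FcoR8, FcoR14, FcoR20 and FcoR51 but not for FcoR24 and FcoR58, and blood lies high for FcoR24, FcoR51 and FcoR58. The ampullae and whole-body points include the SMGO and SMH libraries that chose the genes.

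The 6 genes did not follow one common profile. Over 29 means, 1 per sample class and colony or individual without BSA, the Pearson correlation of log2(mean + 1) between 2 members ran from -0.16 for FcoR20 with FcoR51 to 0.59 for FcoR8 with FcoR24, over 15 pairs. These points share depth, scaling and, for sorted cells, individuals, so the values are a description. The transcripts most like FcoR8 were FcoR61 (r = 0.64) and FcoR24 (0.59), and those most like FcoR14 were FcoR33 (0.63) and FcoR20 (0.53). FcoR20 was most like Grb2 (0.68), in mammals an adaptor of receptor tyrosine kinases, and FF7 (0.66). FcoR24 was most like FcoR8 (0.59) and FcoR58 (0.51), FcoR51 like FcoR58 (0.52) and FcoR72 (0.46), and FcoR58 like FcoR36 (0.55) and FcoR51 (0.52).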

How the data were processed

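Deposited values were made by the authors: per the labels' protocols, poly-A RNA was sequenced as paired ends, with 2 RNA kits and 2 sequencing centres that are assigned to no library, and the submitters' processing notes name Trim Galore, kallisto and RSEM without versions. The deposited signal is TMM-scaled; that it is TPM over 137 transcripts is inferred from the library sums. Of 158 columns, 77 matched a labelled library, and 81 were not used. BSA SB01-03 was not analysed. No 2 libraries were identical (highest correlation 0.995).

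Values were analysed as log2(value + 1) in R 4.3.3 by limma 3.58.1, fitting a variance trend and Benjamini-Hochberg adjustment over all transcripts tested, at 0.05. A transcript was tested where it was at least 1 in as many units as the smallest group holds. Tests were tried on simulated data. Members, lists and tests were chosen with earlier results of these data known. Named genes are the members, the 2 transcripts most alike each, and FcoR38, FcoR62, FcoR70 and FcoR72 for comparison, with later picks marked. Alternatives were pseudocounts of 10 and 0.1, no filter, no variance trend, scaling to the signalling and Fuhc transcripts, other choices of colonies and libraries left out. Descriptions used Python 3.11.15 with numpy 2.4.6, pandas 2.3.3 and matplotlib 3.10.9.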

Additional observations from a re-analysis of the deposited data

Results flagged for a closer look

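Of 34 groups of 4 to 10 libraries, 4 held a value far from its neighbours. The nominal chance share is about 1 in 20 groups, but it was not tested for groups with many zeros, so no excess can be read from these. FcoR14 was at 1433 in the BSA library SB05, with the next value of the 5 libraries at 160.3. FcoR20 was at 584.9 in the BSA library SB06 and at 0 in the other 4. The BSA groups of FcoR14 and FcoR20 include the libraries that held few transcripts, whose zeros say nothing about these genes. FcoR14 was at 409.8 in the male colony MDR at stage A2, with the next of its 7 stages at 106.7. FcoR51 was at 263.3 in the ALDH-positive cells of individual 2B and at 0 in those of the other 3.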

How the results depend on the processing

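Single-gene results kept their direction and their side of the threshold in 761 of 817 repeats, and no result past the threshold changed direction. Of the results that did not pass, 9 changed direction when 1 library or individual was left out, with log2 differences for SKI against SB825 of -0.22 to 0.68 for FcoR58, -0.67 to 0.44 for FcoR24 and -0.052 to 0.48 for FcoR8, for ALDH fractions of -0.084 to 2.93 for FcoR14 and -0.72 to 0.24 for FcoR20, for IA6 fractions of -2.70 to 0.97 for FcoR58, and for winners against losers of -7.53 to 0.75 for FcoR14, -2.22 to 5.65 for FcoR51 and -3.07 to 1.4997 for FcoR58. Between SKI and SB825 whole bodies 1 member, FcoR14, passed with a pseudocount of 10 or with no variance trend, and leaving out 1 library gave 0 to 1. Leaving out 1 library gave 1 to 4 members between whole-body genotypes, and leaving out 1 stage gave 2 to 4 between male genotypes. Leaving out 1 library, line or colony gave 8 to 22 transcripts for the SB825 lines against whole colonies, and 25 transcripts passed with the SB825 and SKI whole bodies alone as colonies. Leaving out 1 male genotype gave 0 to 1 transcripts between stages, 0 without MADM or MDR. FcoR51 in the lines missed the threshold with no filter on low values (adjusted p = 0.0728), and FcoR58 passed with no variance trend (0.0488). Scaled to the signalling and Fuhc transcripts, FcoR51 passed between whole-body genotypes (0.0448). The causes of these changes were not tested. Same-numbered whole-body replicates did not deviate together (18 pairs, correlations -0.242 to 0.125, 3 over 0.1), so no pairing was used. The labels do not say whether equal numbers mark a shared preparation. With a replicate block 84 transcripts and 2 members passed between whole-body genotypes and 60 transcripts and 0 members between SKI and SB825. Between IA6 fractions it was 1 transcript and 0 members. Values at or below the lowest detected value of a library, which is mostly higher in ampullae, male and BSA libraries than in whole bodies, limit what a 0 of FcoR14 or FcoR51 shows.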
